A study of Homo sapiens with 3 samples.

Results

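The TGF-beta and BMP signalling components described here are 41 genes, chosen by name as ligands, latency proteins, receptors, SMADs, corepressors, ubiquitin ligases and target genes of the pathway. All 41 were found among the 17448 genes of the deposited table, and 38 of them reached 10 counts in at least 1 library and were compared. RNA was taken from H128, an established human SCLC cell line, 48 h after transfection with a control siRNA (siCont) or with an siRNA against ESRRG, the gene of the nuclear receptor ERRγ. There was 1 library per condition, labelled siCont, siERRG2 and siERRG3, all from the same parental line, with no other allele or agent named. No difference between libraries has a replicate check, and no p-value is given. The labels do not say which of the study's ESRRG siRNAs each name stands for. Interference by siRNA lowers a transcript without deleting its gene, and each siRNA can also lower transcripts other than its target.

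TGF-beta and BMP ligands are secreted dimers, and TGF-beta is held inactive in the matrix by latent binding proteins. An active ligand joins a type II and a type I receptor kinase, the type I receptor phosphorylates a receptor-regulated SMAD, and this SMAD enters the nucleus with SMAD4. SMAD2 and SMAD3 serve TGF-beta and activin receptors, SMAD1, SMAD5 and SMAD9 serve BMP receptors, SMAD6 and SMAD7 oppose both, and the ID genes are known targets of the BMP arm. TGF-beta signalling is known for its ties to extracellular matrix production, and ID proteins restrain the basic helix-loop-helix factors that drive neuroendocrine identity.

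A ratio in the text is the count in a library over the count in another, after scaling for library size by the TMM method of edgeR. Its 95% interval is an exact binomial (Clopper-Pearson) interval, which covers counting error only and compares libraries, not conditions. A log2 fold change is a difference of log2 CPM with a prior count of 2. A gene is called higher or lower at a change of at least 1.2-fold, the threshold of the study's methods, and is said to differ beyond counting error where the interval of the ratio also excludes 1. Levels of different genes are compared only as FPKM, counts per transcript length and library size.

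Gene positions are the extents listed in the table, on GRCh38. The libraries held between 19861937 and 20016780 counts. ESRRG, the targeted gene (chr1:216503246-217137755), had 806 (siCont), 211 (siERRG2) and 230 (siERRG3) counts, with ratios to siCont of 0.259 (0.221 to 0.302) and 0.281 (0.241 to 0.325). Neuroendocrine markers fitted the label of the line, and all 8 that were analysed, such as INSM1 and SYP, had at least 10 counts in every library. Their levels were not constant, since INSM1 had 10359, 5279 and 9168 counts and NEUROD1 had 7395, 7020 and 4073 in siCont, siERRG2 and siERRG3, and their part in the results was not tested. Their summed level was 1227 to 1524 FPKM, of which UCHL1 gave 696.0 to 1006 FPKM, against 7.02 to 10.8 FPKM for 5 epithelial markers, 4.23 to 5.23 FPKM for 4 leukocyte markers and 23.0 to 32.7 FPKM for 7 fibroblast markers, of which COL1A2 gave 18.8 to 26.6 FPKM. The 4 endothelial markers summed to 17.9, 19.8 and 7.25 FPKM in siCont, siERRG2 and siERRG3. This sum was almost all CDH5, with 1456, 1623 and 585 counts, while VWF and KDR had at most 1 count in any library. The lower CDH5 level in siERRG3 stands beside the lower members in that library, and its part in them was not tested. In bulk RNA, fewer cells of a kind and less RNA per cell cannot be told apart.

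Promoter windows of 4 members on which the results turn are shown first. ACVR1 and SKIL changed in opposite directions with the siRNAs, LTBP4 was lower than siCont with each siRNA, and TGFBR3 had the largest change of all members. The windows are the 250 bases before 1 RefSeq start site per gene (GRCh38.p14), written 5′ to 3′ on the strand of the gene. Other start sites were not searched. The RefSeq extent of TGFBR3 reaches chr1:91906002, so its window lies at a start inside the gene. Capitals mark the letters CAGACA, a box bound by SMAD3 and SMAD4, or GGCGCC, a GC-rich SMAD motif, searched on both strands, so that TGTCTG is CAGACA on the opposite strand.
ACVR1, chr2:157876331-157876580, minus strand: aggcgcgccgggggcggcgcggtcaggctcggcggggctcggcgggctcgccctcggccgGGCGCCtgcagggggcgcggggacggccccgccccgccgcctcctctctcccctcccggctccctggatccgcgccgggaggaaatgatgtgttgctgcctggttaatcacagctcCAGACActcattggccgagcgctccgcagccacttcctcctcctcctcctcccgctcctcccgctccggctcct
SKIL, chr3:170357465-170357714, plus strand: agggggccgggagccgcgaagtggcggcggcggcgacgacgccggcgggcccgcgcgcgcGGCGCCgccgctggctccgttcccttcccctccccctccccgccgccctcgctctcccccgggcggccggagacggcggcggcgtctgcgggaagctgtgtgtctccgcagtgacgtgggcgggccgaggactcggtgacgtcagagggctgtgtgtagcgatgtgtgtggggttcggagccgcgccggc
LTBP4, chr19:40592916-40593165, plus strand: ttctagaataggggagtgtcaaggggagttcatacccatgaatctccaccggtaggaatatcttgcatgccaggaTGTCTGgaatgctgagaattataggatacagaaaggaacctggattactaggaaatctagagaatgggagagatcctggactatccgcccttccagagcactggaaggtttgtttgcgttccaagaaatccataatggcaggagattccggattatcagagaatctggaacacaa
TGFBR3, chr1:91886152-91886401, minus strand: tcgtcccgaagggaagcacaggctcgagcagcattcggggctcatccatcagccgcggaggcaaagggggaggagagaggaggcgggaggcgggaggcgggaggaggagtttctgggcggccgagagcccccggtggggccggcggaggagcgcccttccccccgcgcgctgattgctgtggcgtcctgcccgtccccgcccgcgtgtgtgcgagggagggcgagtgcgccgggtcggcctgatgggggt
Windows were found for 38 of the 41 members. GGCGCC was in 11 of the 38 (28.95%), against 16.1% of all 27305 windows of the same length, and CAGACA was in 5 (13.2%), against 13.6%. GGCGCC holds only G and C, and the member windows that held it were 63.6% to 89.6% G and C. All windows were used without matching for base composition, and its part in the share was not tested. The window of ACVR1 held both motifs, as did that of BMPR2, and the windows of TGFBR3 and of ID1, ID2, ID3 and ID4 held neither. TNAAGGTCA, a motif of estrogen-related receptors, was in 0 of the 38 windows and in 0.85% of all windows. Its core AAGGTCA was also in 0 of 38, against 3.46% of all. A match is a run of letters, not a binding site, and a window without a match says nothing of the factor.

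In siCont the receptor-regulated SMAD transcripts of the BMP arm stood at a higher level than those of the TGF-beta arm. Activity of either arm was not measured. SMAD1, SMAD5 and SMAD9 had levels of 15.3, 16.3 and 26.2 FPKM and summed to 57.9 FPKM, while SMAD2 had 6.5 and SMAD3 0.15 FPKM. SMAD3, the SMAD most used by TGF-beta at its direct DNA targets, had only 17 (siCont), 21 (siERRG2) and 19 (siERRG3) counts, and its ratio to siCont could lie anywhere from 0.614 to 2.47 with siERRG2. The highest members of all were ID1, ID3 and ID2, at 429.6, 216.3 and 133.7 FPKM, which placed them at ranks 162, 310 and 548 of the 17448 genes. SKI followed with 37.7 FPKM.

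In siCont every ligand and every receptor, of either arm, stood below SMAD1, SMAD5 and SMAD9 in FPKM. TGFB3 was the highest ligand at 9.07 FPKM and BMP2 the next at 3.32 FPKM, while TGFB1, TGFB2 and BMP7 had 0.90, 0.39 and 0.26 FPKM. The ligands thus had the reverse order of the SMADs, with summed levels of 10.4 FPKM for TGFB1 to TGFB3 and 3.71 FPKM for BMP2, BMP4 and BMP7. BMP4, INHBA and INHBB stayed under 10 counts in every library, with 4 to 6, 0 to 3 and 1 to 4 counts, and were not compared. Among type I receptors the order was ACVR1B (13.5 FPKM), BMPR1A (10.95), TGFBR1 (6.48), ACVR1 (5.15) and BMPR1B (0.23). Among type II receptors it was BMPR2 (3.53), ACVR2A (3.38), TGFBR2 (1.2) and ACVR2B (1.08). Neither BMPR2 and ACVR2A nor TGFBR2 and ACVR2B can be ranked from a single library each.

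With siERRG2, 8 of the 38 members were lower than in siCont and 9 were higher, beside 19.2% lower and 16.4% higher of all 14031 genes tested. Beyond counting error, 6 were lower and 8 were higher, beside 12.8% and 10.2% of all genes. Among the 31 members that averaged 50 counts or more these were again 6 and 8, or 19.4% and 25.8%, beside 13.7% and 11.2% of the 11369 genes that did. The 6 were TGFBR1, ACVR2B, LTBP4, BMP2, TGFB3 and SKIL, and the 8 were TGIF2, LTBP1, ID3, BMPR1A, SMAD1, ACVR1, TGIF1 and SMAD9. The median log2 fold change was 0.09 over the members and -0.0004 over all genes, and the median size of the change, whatever its sign, was 0.25 and 0.18.

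With siERRG3, 13 members were lower than in siCont and 7 were higher, beside 25.1% and 23.2% of all genes tested. Beyond counting error, 9 were lower and 7 higher, beside 19.9% and 17.1% of all genes. Among the 31 more abundant members they made up 29.0% and 22.6%, beside 23.0% and 17.9% of such genes. The 9 were SKI, ID2, ACVR1, LTBP4, ID4, ACVR2B, ID1, BMP2 and TGFBR1, and the 7 were TGFBR3, TGIF2, SKIL, SMAD7, LTBP1, SMAD6 and TGIF1. The median log2 fold change was -0.12 over the members and -0.0033 over all genes, with median sizes of 0.32 and 0.25. Both comparisons use the same siCont library, so the values of a gene in them are not independent of each other, and they are given side by side.

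**Figure D1:**
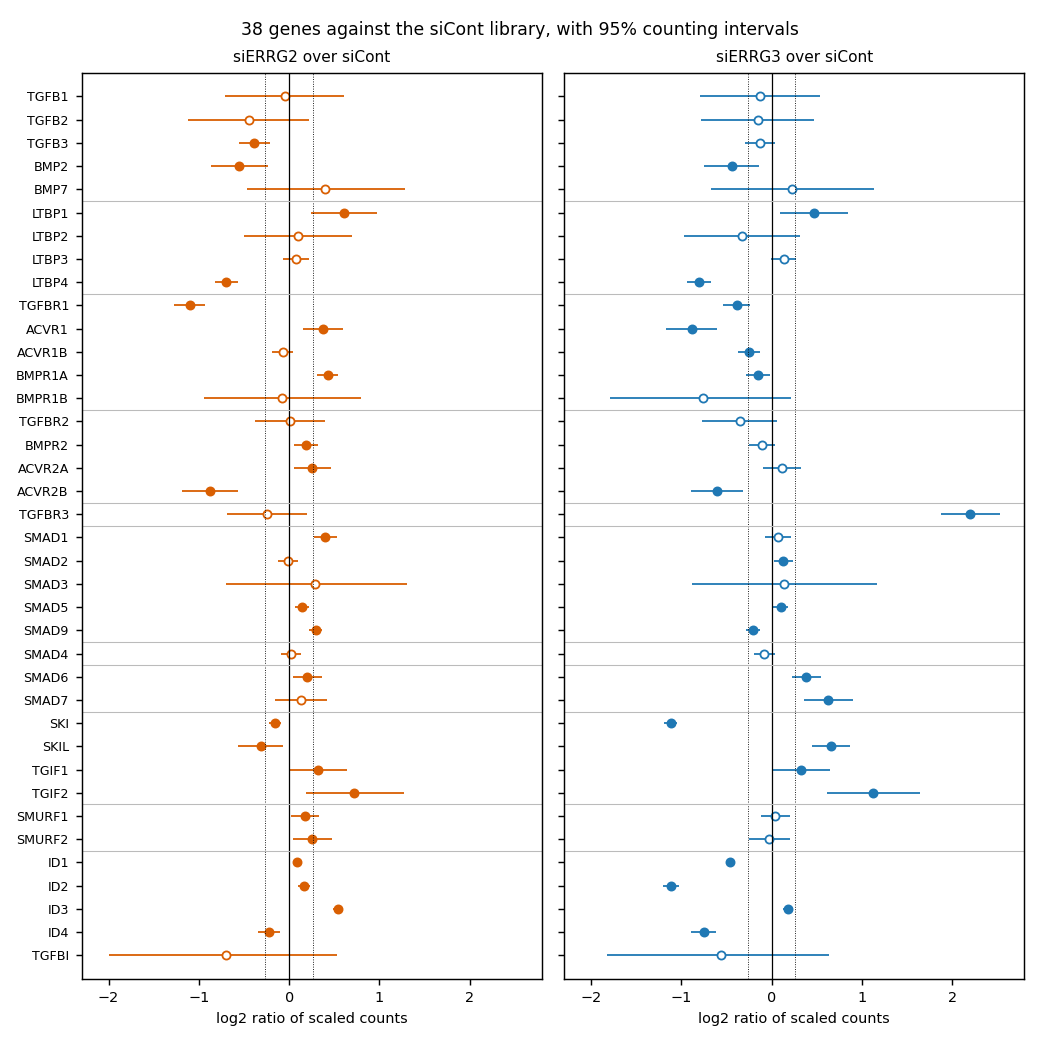
Log2 ratio of scaled counts to siCont for the 38 members compared, with siERRG2 on the left and siERRG3 on the right. Lines are 95% counting intervals, filled points have an interval that excludes a ratio of 1, and dotted lines mark 1.2-fold. TGFBR1 lies farthest left with siERRG2, at a ratio of 0.465, and TGFBR3 farthest right with siERRG3, at 4.59.

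The siRNA libraries also differed from each other. In siERRG3 against siERRG2, 14 members were lower and 7 higher, beside 25.3% and 26.4% of all genes tested. Beyond counting error, 11 were lower and 4 were higher, beside 20.4% and 19.6%. Of the 31 more abundant members, 35.5% were lower and 12.9% higher in this way, beside 23.6% and 20.6% of such genes. The 11 were ID2, ACVR1, SKI, BMPR1A, ID1, ID4, SMAD9, ID3, SMAD1, BMPR2 and SMURF2, which include all 4 ID genes. The 4 higher members were TGFBR3, SKIL, TGFBR1 and SMAD7.

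**Figure D2:**
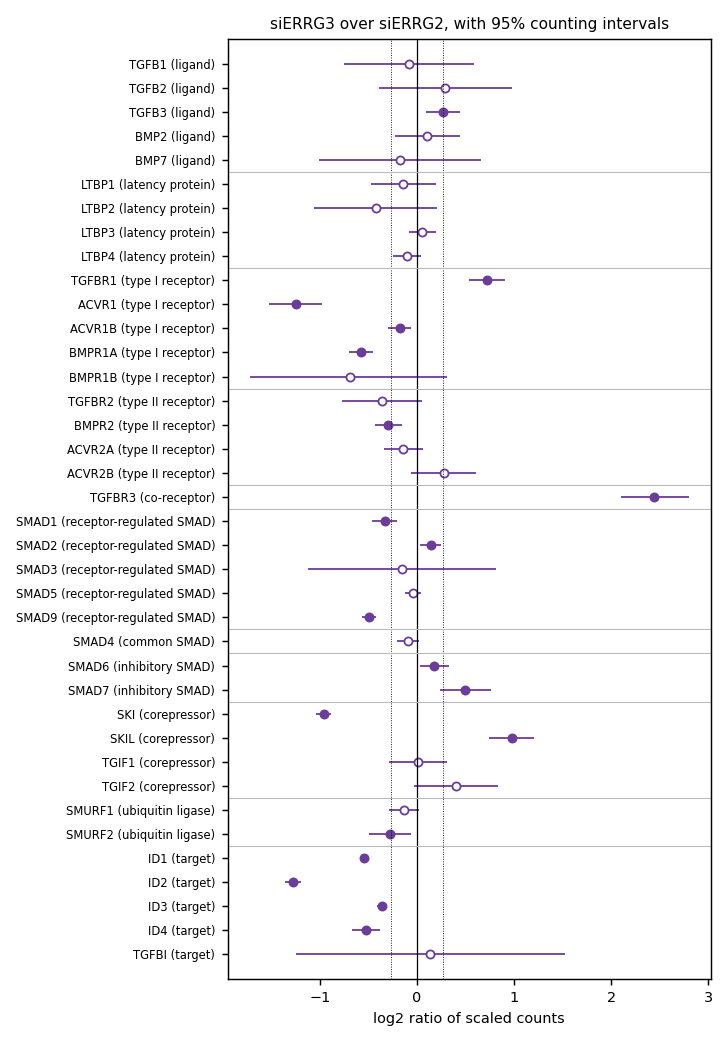
Log2 ratio of scaled counts in siERRG3 over siERRG2 for the 38 members compared, with 95% counting intervals, filled points where the interval excludes a ratio of 1 and dotted lines at 1.2-fold. All 4 ID genes lie left of 0, with ratios of 0.413 to 0.777, and TGFBR3 lies farthest right, at 5.43.

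Among the ligands, BMP2 was lower than siCont in both siRNA libraries and TGFB3 in siERRG2. BMP2 (chr20:6767672-6832293) had 210 (siCont), 145 (siERRG2) and 157 (siERRG3) counts. Its ratio to siCont was 0.683 (0.549 to 0.848) with siERRG2 and 0.735 (0.594 to 0.908) with siERRG3, and the siRNA libraries did not differ from each other beyond counting error. TGFB3 (chr14:75956833-75983011) had 634 (siCont), 490 (siERRG2) and 591 (siERRG3) counts. It was lower with siERRG2, with a ratio of 0.764 (0.678 to 0.861), while its interval with siERRG3, 0.818 to 1.03, included 1. TGFB1, with 42, 41 and 39 counts, TGFB2, with 47, 35 and 43, and BMP7, with 21, 28 and 25, did not differ beyond counting error in any comparison. For TGFB1 the counts allowed a ratio to siCont of 0.612 to 1.52 with siERRG2 and of 0.575 to 1.45 with siERRG3.

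The latency proteins, which bind the TGF-beta precursor and anchor it to matrix fibres, went in different directions. LTBP4 (chr19:40591543-40630235) had 1288 (siCont), 803 (siERRG2) and 750 (siERRG3) counts. Both siRNA libraries were below siCont and near each other, with ratios to siCont of 0.616 (0.564 to 0.674) and 0.573 (0.523 to 0.627) and a ratio between the siRNAs of 0.929 (0.840 to 1.03). LTBP1 (chr2:32883674-33399509) had 104 (siCont), 160 (siERRG2) and 146 (siERRG3) counts. It was higher in each siRNA library, with ratios of 1.52 (1.18 to 1.97) and 1.38 (1.07 to 1.79), the second of which was under 1.2-fold with FPKM and a pseudocount of 1. LTBP3, with 767, 820 and 855 counts, and LTBP2, with 48, 52 and 39, did not differ beyond counting error. In FPKM the summed level of the 4 genes was 22.6, 18.7 and 18.2 in siCont, siERRG2 and siERRG3, of which LTBP4 and LTBP3 gave most.

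TGFBR1, the type I receptor for TGF-beta, was lower with each siRNA, and more so with siERRG2. The gene (chr9:99104038-99154304) had 837 (siCont), 394 (siERRG2) and 652 (siERRG3) counts. Its ratio to siCont was 0.465 (0.412 to 0.525) with siERRG2, the 56th lowest log2 fold change of the 11369 more abundant genes, and 0.766 (0.690 to 0.85) with siERRG3. Between the siRNAs the ratio was 1.65 (1.45 to 1.87). The siERRG2 library was thus below siERRG3 beyond counting error as well.

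ACVR1, a type I receptor used by BMP and activin ligands, took opposite directions. The gene (chr2:157716931-157899888) had 295 (siCont), 386 (siERRG2) and 163 (siERRG3) counts. siERRG2 was the highest library and siERRG3 the lowest, with ratios to siCont of 1.29 (1.11 to 1.51) and 0.543 (0.446 to 0.660). BMPR1A, the main type I receptor for BMP2 and BMP4 (chr10:86740206-86982542), had 982, 1333 and 901 counts, and was likewise highest in siERRG2. Its ratio was 1.34 (1.24 to 1.46) with siERRG2, and with siERRG3 it was 0.902 (0.823 to 0.989), a change under 1.2-fold. Both ACVR1 and BMPR1A had estimated counts that were not whole in every library. GLUD1, which the listed extent of BMPR1A reaches but its RefSeq extent (to 86932844) does not, had 2912, 3371 and 2556 counts. LDB3, which also overlaps BMPR1A, had 959, 216 and 481. UPP2, the only gene listed as overlapping ACVR1, had 1, 1 and 1 counts. The part of shared reads in the changes of ACVR1 and BMPR1A was not tested. ACVR1B, the activin and nodal type I receptor, had 1216, 1169 and 1038 counts and changed by under 1.2-fold, and BMPR1B had 25, 24 and 15 counts, which left intervals that included 1.

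Of the type II receptors, ACVR2B was lower with each siRNA. The gene (chr3:38428359-38494833) encodes an activin receptor and had 252 (siCont), 139 (siERRG2) and 169 (siERRG3) counts. The ratios to siCont were 0.545 (0.440 to 0.673) and 0.660 (0.539 to 0.805), and the interval between the siRNA libraries, 0.961 to 1.53, included 1. Its close relative ACVR2A had 355, 429 and 391 counts, with changes under 1.2-fold. ORC4, which overlaps ACVR2A, had 11039, 13038 and 5862 counts, and XYLB, which overlaps ACVR2B, had 547, 439 and 468. The counts of ACVR2A and ACVR2B were not whole in every library, and the part of shared reads in them was not tested. BMPR2, the dedicated BMP type II receptor, had 859, 991 and 812 counts and was lower in siERRG3 than in siERRG2, with a ratio of 0.815 (0.742 to 0.895), which was under 1.2-fold with FPKM and a pseudocount of 1. TGFBR2, the type II receptor for TGF-beta, had 113, 115 and 90 counts, and the intervals of its ratios to siCont, 0.769 to 1.32 and 0.587 to 1.04, included 1.

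TGFBR3, or betaglycan, which presents TGF-beta ligands to the signalling receptors, had the largest change of all members. The gene (chr1:91639388-91906002) had 96 (siCont), 82 (siERRG2) and 448 (siERRG3) counts. The siERRG3 library stood alone, with a ratio of 4.59 (3.67 to 5.78) to siCont and of 5.43 (4.29 to 6.96) to siERRG2, while siERRG2 had 0.844 (0.621 to 1.15) of siCont. Its log2 fold change of 2.18 against siCont was the 5th highest of the 11369 more abundant genes, and it was 1.32 with FPKM and a pseudocount of 1. All 3 of its counts were whole numbers.

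Of the receptor-regulated SMADs of the BMP arm, SMAD1 and SMAD9 were higher with siERRG2 and within 1.2-fold of siCont with siERRG3. SMAD1 had 820 (siCont), 1096 (siERRG2) and 876 (siERRG3) counts, with a ratio of 1.32 (1.21 to 1.45) with siERRG2 and 1.05 (0.954 to 1.16) with siERRG3. SMAD9, also called SMAD8, had 2902, 3592 and 2567 counts, with ratios of 1.22 (1.17 to 1.29) and 0.870 (0.825 to 0.918), the latter under 1.2-fold. SMAD5, with 2291, 2555 and 2499 counts, changed by under 1.2-fold in each comparison. The summed level of SMAD1, SMAD5 and SMAD9 was 57.9, 70.8 and 56.1 FPKM. SMAD2, with 1363, 1367 and 1514 counts, and the shared partner SMAD4, with 1288, 1319 and 1240, stayed within 1.2-fold in every comparison.

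The inhibitory SMADs, which the pathway induces and which then block its receptors, were higher with siERRG3. SMAD7 (chr18:48919853-48952064) had 187 (siCont), 207 (siERRG2) and 294 (siERRG3) counts. The siERRG3 library was above both others, with a ratio of 1.55 (1.28 to 1.87) to siCont and 1.41 (1.18 to 1.70) to siERRG2. SMAD6 had 568, 661 and 753 counts, and its ratio to siCont was 1.15 (1.03 to 1.29) with siERRG2 and 1.3 (1.17 to 1.46) with siERRG3. Their summed level was 10.5, 11.7 and 14.3 FPKM.

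The corepressors SKI and SKIL (SnoN), close relatives that hold SMAD complexes inactive, differed in direction with siERRG3. SKI (chr1:2191119-2351657) had 4314 (siCont), 3910 (siERRG2) and 2020 (siERRG3) counts, with ratios of 0.896 (0.858 to 0.936) and 0.460 (0.437 to 0.486). SKIL (chr3:170357281-170398112) had 294, 239 and 472 counts. It was the lowest in siERRG2, at 0.804 (0.675 to 0.957) of siCont, and the highest in siERRG3, at 1.58 (1.36 to 1.83). The ratio of siERRG3 to siERRG2 was 0.514 (0.487 to 0.542) for SKI and 1.96 (1.68 to 2.31) for SKIL. MUC4, the only gene listed as overlapping SKIL, had 1, 0 and 1 counts. Neither SKI nor SKIL had whole counts in every library, and the part of shared reads in their changes was not tested.

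TGIF1 and TGIF2, homeobox corepressors of SMAD2 and SMAD3, were higher in both siRNA libraries. TGIF1 had 148 (siCont), 187 (siERRG2) and 189 (siERRG3) counts, with intervals of 1.001 to 1.56 and 1.01 to 1.57 that only just excluded 1. TGIF2 had 48, 80 and 106 counts, with ratios of 1.65 (1.14 to 2.41) and 2.17 (1.53 to 3.12). TGIF2 is uncertain, since its counts were not whole numbers and the table also lists TGIF2-RAB5IF, a read-through gene of TGIF2 and RAB5IF, with 19, 0 and 0 counts. RAB5IF itself had 1293, 1489 and 2011 counts. The SMAD ubiquitin ligases SMURF1, with 643, 735 and 673 counts, and SMURF2, with 324, 391 and 324, were within 1.2-fold of siCont in each siRNA library. SMURF2 was lower in siERRG3 than in siERRG2, with a ratio of 0.824 (0.709 to 0.958), a change that was under 1.2-fold with FPKM and with the stricter filter on counts.

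The ID genes, whose proteins lack a DNA-binding domain and capture basic helix-loop-helix factors, were unequal. ID2 (chr2:8681983-8684453) had 3590 (siCont), 4063 (siERRG2) and 1686 (siERRG3) counts. Only siERRG3 was far from siCont, with a ratio of 0.462 (0.436 to 0.490), against 1.12 (1.07 to 1.17) with siERRG2. ID1 (chr20:31593286-31606515) had 8581, 9203 and 6353 counts, with ratios of 1.06 (1.03 to 1.09) and 0.728 (0.705 to 0.752). ID4 had 1146, 993 and 693 counts, with ratios of 0.857 (0.786 to 0.933) and 0.595 (0.540 to 0.654). ID1, ID2 and ID4 were thus lower than siCont by at least 1.2-fold with siERRG3 and within 1.2-fold with siERRG2.

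ID3 differed from the other ID genes. The gene (chr1:23504987-23574565) had 5259 (siCont), 7742 (siERRG2) and 6048 (siERRG3) counts, so siERRG2 was the highest library. Its ratio to siCont was 1.46 (1.41 to 1.51) with siERRG2 and 1.13 (1.09 to 1.17) with siERRG3. The summed level of the 4 ID genes was 794.3, 944.2 and 632.7 FPKM in siCont, siERRG2 and siERRG3. TGFBI, a matrix protein named for its induction by TGF-beta, had 16, 10 and 11 counts, and its intervals included 1 in each comparison.

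Listed extents, longer than in RefSeq for 35 of the 41 members, overlapped that of another gene for 27 members. Part of this count rests on genes listed across far-apart places of a chromosome. MUC4 (0 to 1 counts) was the only overlap of TGFBR2 and SKIL, and the gene listed as 105373132 (40 to 45) that of TGFB2 and TGFBR3. The more abundant of the overlapping genes not yet named are given here with the range of their counts over the libraries. By its listed extent TGFB1 overlapped HNRNPUL1 (7588 to 9529), CCDC97 (712 to 925), DMAC2 (606 to 737), EXOSC5 (489 to 665), BCKDHA (185 to 336) and B9D2 (30 to 54). All of these stretches lay outside the RefSeq extent of TGFB1, chr19:41330323-41353922. TGFB3 overlapped TTLL5 (1066 to 1176), and LTBP2 overlapped AREL1 (897 to 1001), FCF1 (872 to 1004), ISCA2 (306 to 434) and NPC2 (179 to 255). LTBP3 overlapped 8 genes, among them RELA (2938 to 3101) and FAM89B (1333 to 1685). SKI overlapped FAAP20 (2517 to 2777), ID1 overlapped HM13 (3066 to 3457), ID3 overlapped E2F2 (2068 to 2830) and SMURF1 overlapped TRRAP (2206 to 3254). BMPR2 overlapped NOP58 (2648 to 3565), SMAD4 overlapped ME2 (2494 to 2974) and ELAC1 (82 to 97), SMAD9 overlapped RFXAP (247 to 366), ACVR1B overlapped NR4A1 (513 to 676), BMPR1B overlapped PDLIM5 (1483 to 1823) and SMURF2 overlapped CEP95 (531 to 547). RELA, FAM89B, FCF1, NPC2, E2F2, ME2 and ELAC1 likewise met their members only outside the RefSeq extents of those members. Whether strand was used in counting is not given in the sources used here. Counts were not whole in every library for 18 members, among them ACVR1, ACVR2B, BMPR1A, SMAD9, SKI, SKIL and TGIF2. The part of shared reads was not tested for any member.

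Other genes of the pathway were counted from lists, leaving out the members. Of all genes tested, 12.8% were lower and 10.2% higher beyond counting error with siERRG2, and 19.9% and 17.1% with siERRG3, and the short lists are read against these shares. Of 24 intracellular regulators, 3 were lower and 2 higher beyond counting error with siERRG2, and 6 were lower and 1 higher with siERRG3. Of 12 target genes of TGF-beta that reached 10 counts, 3 were lower and 1 was higher with siERRG2, and 3 were lower and 4 higher with siERRG3. Of 6 target genes of BMP other than the ID genes, 0 were lower and 1 was higher with siERRG2, and 2 were lower and 4 higher with siERRG3. Of 6 activators of latent TGF-beta, 1 was lower and 0 were higher with siERRG2, and 1 was lower and 2 higher with siERRG3. Of 10 other ligands, 1 was lower and 0 were higher with siERRG2, and 2 were lower and 2 higher with siERRG3. Of 5 secreted antagonists, 1 was lower and 2 were higher with each siRNA. The 2 other receptors and co-receptors that reached 10 counts did not differ beyond counting error with either.

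Among the antagonists, DAND5, which encodes an inhibitor of nodal and BMP ligands, had 215 (siCont), 66 (siERRG2) and 131 (siERRG3) counts. It was lower with each siRNA, with log2 fold changes of -1.69 and -0.73. NBL1, which encodes another member of the same inhibitor family, had 30, 64 and 71 counts and was higher with each, by 1.03 and 1.17. NOG, the gene of the BMP antagonist noggin, had 52, 82 and 58 counts and was higher with siERRG2, by 0.62 on the log2 scale.

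Genes that act on latent TGF-beta also differed between the siRNAs. FURIN, the protease that cuts the TGF-beta precursor, had 731, 315 and 756 counts and was lower with siERRG2, by a log2 fold change of -1.23. ITGAV, the integrin chain that helps free the ligand, had 872, 995 and 453 counts and was lower with siERRG3, by -0.97. THBS1, which encodes an activator of latent TGF-beta, had 5, 5 and 18 counts, with an interval of 1.27 to 12.2 for siERRG3 over siCont. MMP2, a matrix protease, had 210, 222 and 344 counts and was higher with siERRG3.

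Target genes of TGF-beta went both ways with siERRG3, with 4 higher and 3 lower beyond counting error. The 4 higher were CDKN2B, JUNB, SNAI1 and TAGLN, and the 3 lower were CDKN1A, SNAI2 and COL1A1. CDKN2B, an inhibitor of cyclin-dependent kinases, had 230, 187 and 506 counts, JUNB had 2978, 2938 and 4831, SNAI1 had 207, 185 and 331 and TAGLN had 62, 59 and 102. Their log2 fold changes with siERRG3 were 1.11, 0.67, 0.65 and 0.68. With siERRG2, CDKN2B was lower, at -0.31, and JUNB, SNAI1 and TAGLN were within 1.2-fold of siCont. COL1A1, a collagen chain, was lower with each siRNA, with 181, 127 and 132 counts. COL1A2, counted above as a fibroblast marker and not in this list, was highest in siERRG2 and lowest in siCont, with 2043, 2896 and 2505 counts. CDKN1A had 6799, 9349 and 5507 counts and was lower with siERRG3, at -0.33, but higher with siERRG2, at 0.44. SNAI2 had 717, 611 and 553 counts and was lower with siERRG3, at -0.40, and within 1.2-fold of siCont with siERRG2. Of the homeobox target genes of BMP, MSX1 had 158, 205 and 271 counts, DLX5 had 239, 282 and 423 and DLX2 had 993, 853 and 1568, so that all 3 were highest in siERRG3. GATA2, another BMP target, was also highest there, with 1237, 1452 and 1522 counts and a ratio to siCont of 1.21 (1.122 to 1.305). The BMP targets ATOH8, with 3233, 3450 and 2617 counts, and HEY1, with 197, 238 and 144, went the other way. Their ratios of siERRG3 to siCont were 0.796 (0.756 to 0.838) and 0.719 (0.576 to 0.896).

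Of the other ligands, GDF1 was lower with siERRG2, with 82, 45 and 90 counts, while GDF15 and INHBE were higher with siERRG3, with 20, 25 and 50 and with 95, 105 and 167 counts. Of the regulators, E2F5 was lower with each siRNA, with 321, 261 and 246 counts, and RBL1 and TAB2 were lower with siERRG3, with 455, 473 and 290 and with 1074, 1062 and 709 counts. E2F5 and RBL1 encode partners of SMAD3 in repression, and TAB2 an adaptor of the kinase TAK1.

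The annotation columns of the table hold sets for the same pathways, to be read against the same shares of 12.8% and 10.2% of all genes with siERRG2 and 19.9% and 17.1% with siERRG3. Leaving out members, the Hallmark set of TGF-beta signaling had 4 genes lower and 3 higher beyond counting error of 32 with siERRG2, and 6 lower and 5 higher with siERRG3. The KEGG set had 3 lower and 2 higher of 34, and 6 lower and 4 higher. The Reactome set of the TGF-beta receptor complex had 7 lower and 3 higher of 47, and 5 lower and 10 higher. The Reactome set of BMP signaling had 0 lower and 2 higher of 4, and 0 lower and 0 higher, and the GO set of the BMP pathway had 5 lower and 4 higher of 35, and 7 lower and 5 higher. The median log2 fold change over these genes lay between -0.06 and 0.04 in each set and siRNA, except for the 4 genes of the Reactome set of BMP signaling, with 0.26 with siERRG2.

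Further genes of these sets were named by the same rule. BCAR3, an adaptor of integrin signalling, was higher with each siRNA, with 370, 649 and 612 counts, and WWTR1, the gene of the coactivator TAZ, had 9, 27 and 54, which gave ratio intervals of 1.35 to 7.17 with siERRG2 and 2.89 to 13.6 with siERRG3. Lower with each siRNA were THBS3, with 2697, 1682 and 2060 counts, FAM83G, with 1715, 1193 and 1056, and LRP4, with 193, 122 and 144. CTNNB1, the gene of β-catenin, with 4041, 4215 and 2236 counts, HIPK2, with 1791, 1941 and 992, and ZNF8, with 124, 119 and 79, were lower with siERRG3. RAB31 was lower with siERRG2, with 415, 261 and 371 counts, and PARD6A was higher with siERRG3, with 312, 276 and 521. CDK8, with 925, 584 and 1217 counts, and PPP1R15A, with 304, 200 and 453, were lower with siERRG2 and higher with siERRG3. CDKN1C had 18, 10 and 7 counts and SCX 12, 7 and 3, with intervals of 0.135 to 0.96 and 0.0445 to 0.911 for siERRG3 over siCont.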

How the data were processed

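RNA-seq of H128 cells was analysed, with 1 library per condition (siCont, siERRG2 and siERRG3). The authors deposited estimated counts (expected counts) per gene, not normalized, and an expression value of unnamed unit that behaves as FPKM. The sources differ on the upstream steps: the methods name BWA and Bowtie 2 on GRCh37/hg19, the submitters' processing notes list TopHat2, HTSeq and DESeq2, and coordinates in the table are on GRCh38. The gene extents in the table were longer than in RefSeq for 35 of the 41 members, and 8 of 38 were listed on the other strand, so strand was taken from RefSeq. Between 54.1% and 54.9% of the counts were whole numbers (tolerance 0.005), as were those of 23 members in every library. The authors' log2 ratios and p-values were not used.

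Counts were rounded, genes that reached 10 counts in any library were kept (14031 genes), and libraries were scaled by TMM (edgeR 4.0.16, R 4.3.3). Intervals are 95% exact binomial (SciPy 1.17.1). The scripts were tested on simulated data with known changes. The members and lists were chosen with earlier results of these data known. Members are described with intervals where an interval excluded 1 at a change of at least 1.2-fold in any comparison. SMAD2, SMAD5, ACVR1B, ACVR2A and SMURF1, whose intervals excluded 1 only at smaller changes, are given by their counts. Other pathway genes are named where they differed from siCont by at least 1.2-fold in the same direction with both siRNAs at a mean of at least 50 counts, or by at least 1.5-fold beyond counting error with either. CDKN1A, SNAI2, ATOH8 and HEY1 do not meet this rule and are given for the other direction in their lists. GATA2 does not meet this rule either and is given to complete the BMP targets. A gene that meets this rule is not reported here. Alternatives changed the scaling (total counts, or DESeq2 1.42.0 size factors), the values (FPKM plus 0.1 or plus 1), the prior count (0.5), the filter (none, or an average of 50 counts) and the threshold (1.5-fold or 2-fold). No other per-sample column was present.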

Additional observations from a re-analysis of the deposited data

Results flagged for a closer look

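ACVR1 was at least 1.2-fold higher than siCont with siERRG2 and at least 1.2-fold lower with siERRG3, and its log2 fold change in siERRG3 against siERRG2 was -1.24. SKIL had the opposite pattern, lower with siERRG2 and higher with siERRG3, with a log2 fold change of 0.97 between them. Each direction rests on 1 library, and the difference between the siRNAs was not tested over replicates. The counts of ACVR1 and SKIL were not whole in every library.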

How the results depend on the processing

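No paired analysis was possible because each condition has 1 library. At a threshold of 1.5-fold, 4 members were lower and 2 higher with siERRG2 (6.97% and 4.29% of all genes), 7 and 4 with siERRG3 (9.95% and 8.47%), and 4 and 3 in siERRG3 against siERRG2 (10.0% and 10.7%). At 2-fold these were 1 and 0 (2.33% and 1.29%), 2 and 2 (2.65% and 2.91%), and 2 and 1 (3.25% and 3.63%). With FPKM and a pseudocount of 1, which draws low values together, 9 members were lower and 4 higher in siERRG3 against siERRG2 (18.6% and 18.7% of all genes), and ESRRG had log2 fold changes of -1.52 and -1.45. At that pseudocount TGFBR3 was at 1.32 with siERRG3 and 1.35 between the siRNAs, TGFBR1 at -0.90 and ACVR2B at -0.38 with siERRG2, and ACVR2B at -0.27 and TGIF2 at 0.59 with siERRG3. Of the changes beyond counting error, those of LTBP1 with siERRG3 (0.23) and of BMPR2 (-0.23) and SMURF2 (-0.16) between the siRNAs were then under 1.2-fold. SMURF2 was also under 1.2-fold with a pseudocount of 0.1 (-0.20) and with an average of at least 50 counts (-0.26). Other counts of members at 1.2-fold stayed within 1.5 times the reported ones.

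No member change of at least 1.2-fold turned its sign under these alternatives. Smaller ones could, and with a pseudocount of 0.1 TGFB1 was at 0.18 with siERRG2, against -0.05 by counts, at -0.30 with siERRG3 and at -0.48 between the siRNAs. TGFBR3 was there at 2.08 between the siRNAs. With a pseudocount of 1, 1532 genes were lower and 1428 higher with siERRG2, against 2689 and 2295 by counts, and with no filter 3455 were higher. Members with under 50 counts, such as SMAD3 and TGFB2, are limited by depth, and differences between cultures cannot be told apart from those between siRNAs.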
